A study of Rattus norvegicus with 6 samples.

Results

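The heat shock protein and chaperonin genes of cultured rat neural progenitors were selected by gene symbol, as names that begin with Hsp followed by a letter from a to h or a digit, with Cct followed by a digit, or with Dnaj. The rule picked 81 of 17337 names of genes in the deposited tables, and no expression value was used in it. By name, 3 belonged to the Hsp90 family, 14 to the Hsp70 and Hsp110 families, 8 to the small heat shock proteins, 2 to the mitochondrial chaperonin, 9 to the cytosolic chaperonin CCT and 43 to the J proteins. Hspbp1 and Hspbap1 matched by their letters only and are binding partners of heat shock proteins. PolyA RNA had been sequenced from cortical cells of Sprague Dawley rat embryos at embryonic day 14, grown with bFGF and EGF and collected after their second passage. No treatment or heat shock was applied to any culture. There were 2 independent biological replicates, A and B, each sequenced as 2 technical libraries (A1, A2, B1 and B2). The 2 Start-seq samples of the study were not analysed here.

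Chaperones bind unfolded or partly folded proteins and release them in cycles driven by ATP. Hsp70 proteins are loaded with clients by J proteins and are emptied by nucleotide exchange factors such as the Hsp110 proteins, Hsp90 acts later on kinases and steroid receptors, small heat shock proteins hold clients without ATP, and the chaperonins enclose a client inside a ring. Constitutive members such as Hspa8 serve growing cells at all times, whereas inducible members such as Hspa1a and Hspa1b are switched on by the transcription factor Hsf1 when proteins unfold. Hsf1 binds the heat shock element, a run of alternating GAA and TTC blocks in the promoter.

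The level of an mRNA is given as FPKM, the fragments of a transcript scaled for its length and for the depth of the library, and so can be compared between genes. Levels are the mean ± SD over the 2 biological replicates after averaging of the technical libraries. With 1 condition and n = 2 no test was made, and libraries are said to overlap or not to overlap. Depth was unequal, since the read coverage that corresponds to 1 FPKM was 24.3, 22.7, 24.4 and 6.83 in A1, A2, B1 and B2, and total read numbers were not used. The progenitor markers Sox2, Pax6, Nes and Vim were all above 20 FPKM in every library. Fabp7 and Hes5 of the same list of 6 were lower in B by 1.56 and 1.15 on the log2 scale. Sox2 was also lower in B without overlap, by 0.59, while the libraries of Nes, Pax6 and Vim overlapped. The list without Fabp7 summed to 3912, 4236, 3305 and 5069 FPKM in A1, A2, B1 and B2. Vim alone gave 2882, 3171, 2652 and 4458 FPKM of that sum in the same order, so the sum mostly followed Vim. Replicate B also had higher levels of mesenchymal and meningeal markers, of which 7 of 7 were higher than in A by at least 1 on the log2 scale with no overlap of libraries, and their summed level was 638, 623, 2450 and 2956 FPKM in A1, A2, B1 and B2. Bulk RNA cannot tell apart a change in the number of cells of a type from a change in RNA per cell.

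Response to Hsf1 usually defines the constitutive and inducible classes, so the promoters of the members were searched for its site. Of the 81 members, 65 had a promoter in the RefSeq table of assembly GRCr8, a window of 250 bases before and 50 bases from the annotated start. A pair of blocks, GAANNTTC or TTCNNGAA, each of which reads the same on both strands, was present in 19 of the 65 (29.2%) and in 15.9% of all 33469 promoters of the same length. Restricted to genes averaging 1 FPKM or more, the pair was in 18 of 54 members (33.3%) and in 11% of 8379 promoters. A triple of blocks, GAANNTTCNNGAA or TTCNNGAANNTTC, which are the same site on opposite strands and contain the pair, was in 6 of 65 members (9.23%) and in 0.798% of all promoters. The 6 genes were Hspa8, Hspe1, Hspd1, Dnaja1, Cct4 and Hsph1. These counts describe letters in a window and not binding. The windows rest on annotated starts, and the paper reports that many RefSeq starts in rn6 lie away from its Start-seq starts. No window was moved to a Start-seq start.

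The windows of Hspa8 (chr8:50080264-50080563, plus strand), Hspe1 (chr9:64084077-64084376, plus strand) and Hsph1 (chr12:10427118-10427417, plus strand) are shown whole, since they carry triples in a constitutive gene, a mitochondrial chaperonin gene and an inducible gene. Capitals mark the GAA and TTC pairs, with overlapping pairs merged into longer runs. The Hspe1 window overlapped that of Hspd1 by 211 bases on the opposite strand, and both hold the same triples.
Hspa8: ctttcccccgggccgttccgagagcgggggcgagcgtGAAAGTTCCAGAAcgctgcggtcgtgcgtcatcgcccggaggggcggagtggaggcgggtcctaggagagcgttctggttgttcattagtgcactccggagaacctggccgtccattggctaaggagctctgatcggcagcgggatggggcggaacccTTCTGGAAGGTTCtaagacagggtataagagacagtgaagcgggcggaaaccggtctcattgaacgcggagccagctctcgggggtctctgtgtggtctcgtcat
Hspe1: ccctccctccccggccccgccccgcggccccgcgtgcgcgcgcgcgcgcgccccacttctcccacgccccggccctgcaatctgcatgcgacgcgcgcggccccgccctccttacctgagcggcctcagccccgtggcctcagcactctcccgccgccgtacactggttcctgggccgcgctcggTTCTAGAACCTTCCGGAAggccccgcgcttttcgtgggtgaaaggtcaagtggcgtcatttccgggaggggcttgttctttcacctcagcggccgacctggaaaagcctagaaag
Hsph1: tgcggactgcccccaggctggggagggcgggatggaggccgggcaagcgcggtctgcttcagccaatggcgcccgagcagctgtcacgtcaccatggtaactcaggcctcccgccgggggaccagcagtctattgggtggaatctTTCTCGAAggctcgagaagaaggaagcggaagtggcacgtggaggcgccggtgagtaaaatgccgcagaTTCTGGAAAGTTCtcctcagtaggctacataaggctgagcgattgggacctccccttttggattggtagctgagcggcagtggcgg
The Hspa8 window held 2 triples and that of Hsph1 held 1, so the site was present in a gene of each class. Hspe1, Hspd1, Dnaja1 and Cct4, which also held a triple, were on neither of the constitutive and heat-inducible lists compared below. Shorter stretches, with the same use of capitals, are shown for Dnaja1 (chr5:60638403-60638435, plus strand) and Cct4 (chr14:101193072-101193104, plus strand), which hold a triple. Dnajb1 (chr19:41431107-41431162, minus strand) and Hspb1 (chr12:26432393-26432440, minus strand) are 2 inducible genes that hold pairs but no triple. Relative to the annotated start, the stretch of Dnaja1 ran from -1 to 31 and that of Cct4 from 15 to 47, so both triples lay past it.
Dnaja1: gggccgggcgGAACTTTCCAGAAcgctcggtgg
Cct4: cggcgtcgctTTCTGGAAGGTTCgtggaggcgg
Dnajb1: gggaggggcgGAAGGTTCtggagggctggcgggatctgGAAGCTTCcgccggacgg
Hspb1: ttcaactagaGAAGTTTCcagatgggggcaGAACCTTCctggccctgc
The 6 genes with a triple had mean levels of 27.9 to 1056 FPKM with a median of 190, and 5 of them were at 100 FPKM or more, although Hspe1 and Hspd1 share their sites. The 13 genes with a pair alone had a median of 23.1 FPKM, with 1 at 100 FPKM or more. The 46 genes with neither had a median of 19.6 FPKM, with 8 at 100 FPKM or more and a highest mean of 969 FPKM. Neither motif was found in the windows of Hspa1a, Hsp90ab1, Hspa5 or Hsp90b1, which says only that these letters are not in these windows. Hspa1b and Hsp90aa1 were not among the matched promoters.

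Most members were expressed. A mean level of 1 FPKM or more was reached by 66 of 81 members (81.5%), compared with 60.5% of all gene names. At 10 FPKM the counts were 52 of 81 (64.2%) against 38.3%, and at 100 FPKM 16 of 81 (19.8%) against 6.14%. Only Dnajb8, a J protein gene known from testis, was listed at 0 in every library, compared with 13.3% of all gene names, while 77 members were above 0 in all 4 libraries. Summed over members, the share of all transcripts in TPM (transcript counts per length, scaled to a fixed total) was 1.03% ± 0.0089, with 1.04% in both libraries of A, 0.986% in B1 and 1.07% in B2. The Hsp90 family gave 0.284% ± 0.018, the Hsp70 and Hsp110 families 0.249% ± 0.015, the J proteins 0.225% ± 0.0075, CCT 0.175% ± 0.0026, the mitochondrial chaperonin 0.067% ± 0.0074 and the small heat shock proteins 0.019% ± 0.0024. With levels from the deposited coverage the Hsp90 share was 0.250% ± 0.023, against 0.256% ± 0.016 for the Hsp70 and Hsp110 families and 0.229% ± 0.0077 for the J proteins. By that measure Hsp90 was below the Hsp70 and Hsp110 families in both A libraries and above them in both B libraries, and it was below the J proteins in A1 only.

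**Figure D1:**
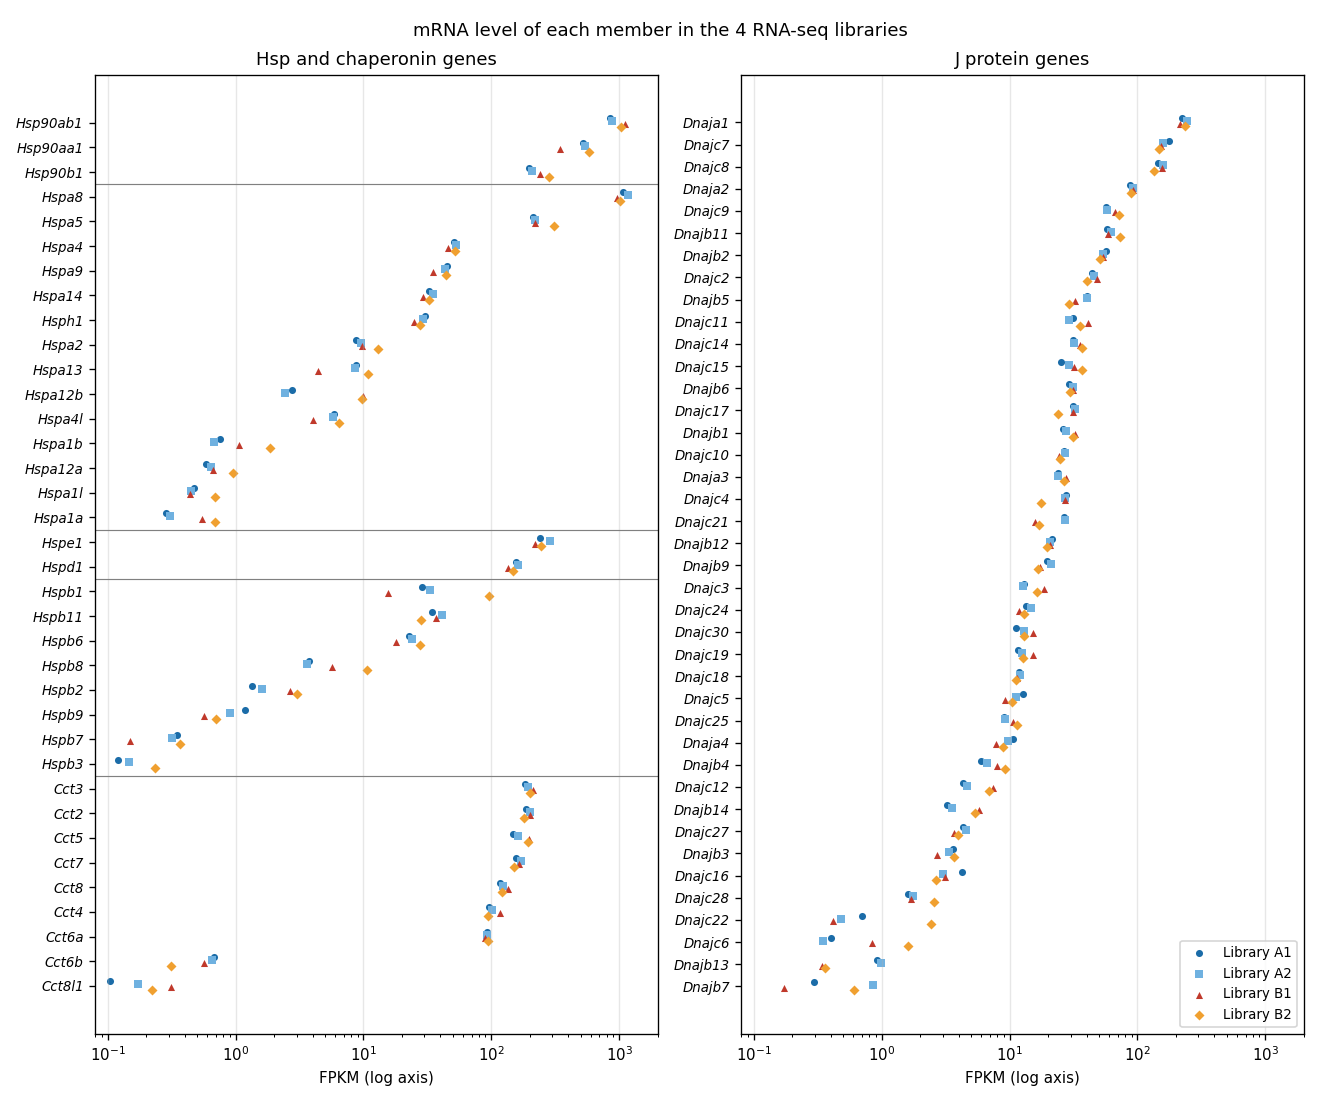
FPKM of each member with a mean above 0.1 FPKM in the libraries A1, A2, B1 and B2 (log axis), grouped by family and sorted by mean level, with J proteins on the right. The levels of Hspa8 and Hsp90ab1 lie near 1000 FPKM in all 4 libraries, the 7 CCT subunits stand together between 88.7 and 212 FPKM. For Hspa12b the libraries run from 2.44 to 9.93 FPKM and for Hspb1 from 15.5 to 95.3 FPKM.

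Hspa8, the constitutive cytosolic Hsp70 that folds new proteins and strips clathrin from vesicles, had the highest mean of any member when the rows of its name were added up. It measured 1070 and 1165 FPKM in A1 and A2 and 967 and 1024 FPKM in B1 and B2, a mean of 1056 ± 86.9, and ranked 76 among all gene names. The name covered 3 places in rn6. The row on chromosome 8 (44989401 to 44993261, plus strand) held 82.0% of the mean, and rows on chromosome 11 (13499164 to 13501263) and chromosome 6 (34553288 to 34555386) held 10.8% and 7.27%. The last 2 rows spanned 2100 and 2099 bases and kept nearly the same share in each library. Their reads cannot be told apart here from reads of the chromosome 8 gene, and that row alone averaged 866 FPKM, which is below the mean of Hsp90ab1 (969 FPKM).

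Hspa1a and Hspa1b, the strictly heat-inducible Hsp70 genes, were near or below 1 FPKM on average. Hspa1a (rn6 chromosome 20, 4955668 to 4959762) was at 0.283, 0.307, 0.547 and 0.685 FPKM in A1, A2, B1 and B2. Hspa1b (rn6 chromosome 20, 4875834 to 4881751) was at 0.760, 0.676, 1.07 and 1.87 FPKM. Both were lower in A than in B without overlap, and the coverage of Hspa1b, the mean read depth over its transcript, was 18.5, 15.4, 26.1 and 12.8 in A1, A2, B1 and B2. As near-identical copies they share reads, so their sum was used, and it was 1.04, 0.983, 1.62 and 2.56 FPKM (1.55 ± 0.760). The rn6 span of Hspa1a also overlaps that of Hspa1l on the other strand (4959294 to 4965191), a testis gene at 0.51 FPKM, and the counting was not stated to use strand.

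Hspa8 exceeded the sum of Hspa1a and Hspa1b by 681-fold as a ratio of means. The ratio was 1027 and 1185 in A1 and A2 and 597 and 400 in B1 and B2. The biological replicates therefore had ratios of 1104 (A) and 477 (B), and Hspa8 itself differed only 1.12-fold between them. With the chromosome 8 row of Hspa8 alone it was 559. In all 4 libraries the gap was far larger than the spread between libraries.

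Among the other Hsp70 genes, Hspa5, the endoplasmic reticulum form known as BiP, came next at 240 ± 34.0 FPKM. Hspa4, an Hsp110-class exchange factor, was at 50.6 ± 2.01 FPKM and Hspa9, the mitochondrial form, at 42.2 ± 3.30 FPKM. Hspa14 of the ribosome-associated complex was at 32.4 FPKM, Hspa2 at 10.3 FPKM, Hspa13 at 8.14 FPKM and Hspa4l at 5.53 FPKM. Hspa8 alone was 2.48 times the sum of all other Hspa genes and Hsph1. Hsph1, the heat-inducible Hsp110, measured 30.02, 29.1, 24.7 and 27.7 FPKM (27.9 ± 2.39). Hspa4, its constitutive relative, measured 51.3, 52.8, 46.2 and 52.2 FPKM in the same order. The ratio of Hspa4 to Hsph1 was 1.71, 1.81, 1.87 and 1.88, or 1.81 from the means, and the libraries of these genes did not overlap.

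Hsp90ab1 and Hsp90aa1, the constitutive and inducible cytosolic Hsp90 genes, were both abundant. Hsp90ab1 (rn6 chromosome 9, 17817791 to 17823163) measured 843, 879, 1112 and 1040 FPKM in A1, A2, B1 and B2, a mean of 969 ± 152. Hsp90aa1 (rn6 chromosome 6, 135044841 to 135112793) measured 521, 539, 345 and 580 FPKM, a mean of 496 ± 47.5. Unlike Hspa1a and Hspa1b, this inducible gene was exceeded by only 2 members in FPKM. The ratio of Hsp90ab1 to Hsp90aa1 was 1.62, 1.63, 3.23 and 1.79, with 1.95 from the means, and B1 stood apart, with the lowest Hsp90aa1 and the highest Hsp90ab1 of the 4 libraries. The deposited coverage of Hsp90aa1 was 0.50 of the amount that its FPKM corresponds to elsewhere in the same library, a mismatch of over 1% that 4.43% of all expressed genes shared and, among members, only Dnaja3. Levels taken from coverage put the ratio at 3.91 and the mean of Hsp90aa1 at 248.1, just under Hspe1. The direction was thus the same by both measures, and its size was not settled by the tables.

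The order of Hspa8 and Hsp90ab1 was not stable. Hspa8 was 1.27 and 1.33 times Hsp90ab1 in A1 and A2, but 0.869 and 0.984 times in B1 and B2. Hsp90ab1, in turn, stood above Hsp90aa1 in every library without overlap. By FPKM, Hsp90aa1 likewise stood above the next gene, Hspe1, but its coverage corresponded to 260 and 269 FPKM in the A libraries, 172 FPKM in B1 and 290 FPKM in B2 (mean 248.1), which overlap those of Hspe1 (mean 248.4). The following 4 genes, Hspe1, Hspa5, Hsp90b1 and Dnaja1, had means of 229 to 248 FPKM and overlapping libraries.

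Over the lists of constitutive and heat-inducible members, the classes differed in their medians and overlapped in their ranges. The constitutive list (Hspa8, Hsp90ab1, Hspa4, Hspa9, Dnaja2 and Dnajc7) had means of 42.2 to 1056 FPKM and a median of 125. The heat-inducible list (Hspa1a, Hspa1b, Hsp90aa1, Hsph1, Dnajb1 and Hspb1) had means of 0.46 to 496 FPKM and a median of 28.7. The ratio of the medians was 4.35, compared with 3.43 when Hspa1a and Hspa1b were left out and 4.99 without library B2. Of the heat-inducible genes 4 of 6 were above 10 FPKM in these unstressed cultures. As a share of all transcripts, the constitutive list gave 0.397% ± 0.0016 and the inducible list 0.101% ± 0.0070, of which B1 had the least (0.069%) and B2 the most (0.123%). Hsp90aa1 made up most of the inducible share, which was 0.061% ± 0.0020 with levels from coverage.

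**Figure D2:**
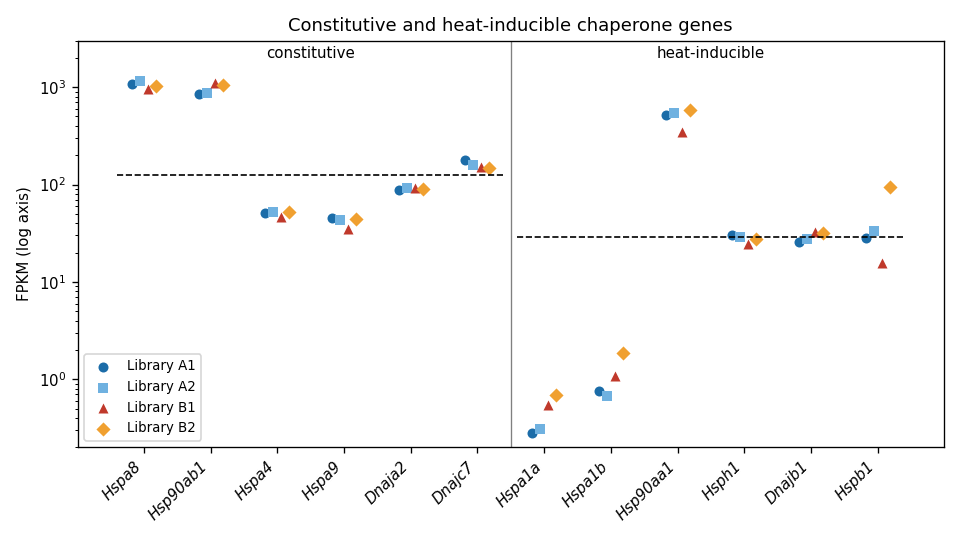
FPKM (log axis) of the constitutive and heat-inducible genes in the libraries A1, A2, B1 and B2. Dashed lines are the medians of the gene means, 125 FPKM for the constitutive list and 28.7 FPKM for the inducible list. Hspa1a and Hspa1b lie below 2 FPKM in every library, while Hsp90aa1 lies above the median of the constitutive list.

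The cytosolic chaperonin CCT, a ring that folds actin and tubulin and holds each subunit in equal number, had subunit mRNAs within a narrow band. Cct3 had 197 ± 12.1 FPKM, Cct2 192 ± 3.03, Cct5 175 ± 28.0, Cct7 160 ± 4.37, Cct8 124 ± 5.11, Cct4 102 ± 4.49 and Cct6a 91.9 ± 0.961. The highest mean was 2.15 times the lowest, and the replicates had ratios of 2.10 (A) and 2.26 (B). Of the 6 neighbouring pairs in this order, only Cct7 and Cct8, and Cct4 and Cct6a, had libraries that did not overlap. Cct8 exceeded Cct4 within each of the 4 libraries, although their ranges touched. Tcp1, which encodes subunit 1 and does not match the naming rule, was at 97.8, 102, 108 and 98.2 FPKM, within the range of the other subunits. Cct6b, the testis form of subunit 6, had 0.55 FPKM and Cct8l1 0.20 FPKM.

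**Figure D3:**
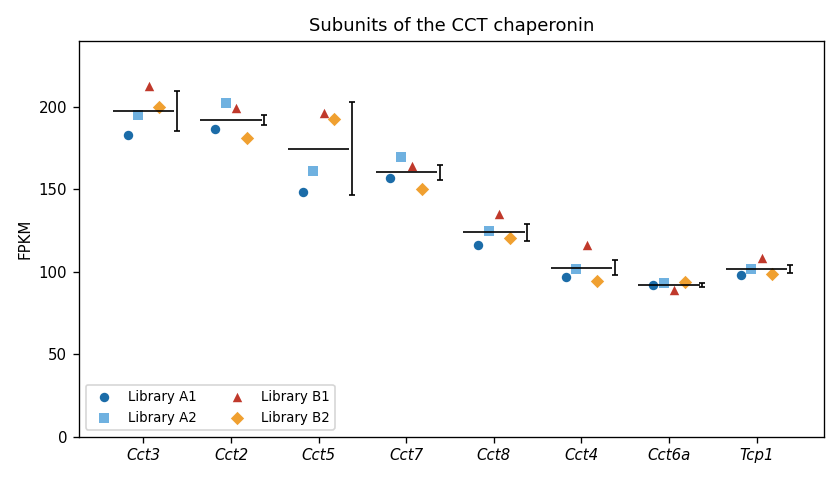
FPKM of the 7 CCT subunit genes matched by name and of Tcp1 in the libraries A1, A2, B1 and B2. Horizontal lines are means and vertical bars SD over the 2 biological replicates. Subunits from Cct3 to Cct6a fall from 197 to 91.9 FPKM, and replicates differ most for Cct5.

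CCT partners were also expressed, with 8 of 8 listed genes above 10 FPKM. Among them were the prefoldin subunits Pfdn5 and Pfdn6, which pass nascent actin and tubulin to the ring, at 239 ± 5.12 and 223 ± 6.08 FPKM.

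Hspe1 and Hspd1, which encode the lid and the barrel of the mitochondrial chaperonin, are neighbours on rn6 chromosome 9 with starts 290 bases apart and opposite directions. Hspe1 measured 242, 286, 220 and 246 FPKM and Hspd1 157, 163, 136 and 148 FPKM in A1, A2, B1 and B2. Both were lowest in B1. The ratio of Hspe1 to Hspd1 was 1.55, 1.76, 1.62 and 1.66, and replicates A and B had 1.65 and 1.64. Of the 9 mitochondrial members, 9 were above 1 FPKM. Of the 6 J proteins of this compartment 5, namely Dnaja3, Dnajc11, Dnajc15, Dnajc19 and Dnajc30, were higher in B than in A without overlap, by 0.19 to 0.33 on the log2 scale, a direction and rule that 28.1% of all genes met. The libraries of Dnajc28 overlapped, and Hspd1 was lower in B without overlap, as 32% of all genes were.

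In the endoplasmic reticulum, Hspa5 and its partner Hsp90b1 were the main members. Hspa5 measured 211, 220 and 218 FPKM in A1, A2 and B1 and 309 FPKM in B2, so the highest value came from the shallowest library. Hsp90b1, the reticulum Hsp90 known as GRP94, measured 196, 209, 240 and 281 FPKM and was higher in B without overlap. Their J protein partners were lower, with Dnajb11 at 62.6, Dnajc10 at 25.7, Dnajb9 at 18.6 and Dnajc3 at 15.2 FPKM. Calr, the lectin chaperone calreticulin and no member, was at 694 ± 24.2 FPKM.

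The J proteins, which stimulate the ATPase of Hsp70, ranged from 0 to 229 FPKM. Of 43, 36 had at least 1 FPKM, 28 at least 10 and 3 at least 100, and the median was 15.2 FPKM. Dnaja1, a main cytosolic partner of Hspa8, measured 224, 245, 214 and 235 FPKM (229 ± 7.20). Dnajc7, which binds both Hsp70 and Hsp90, was at 159 ± 12.6 FPKM, Dnajc8, a splicing-associated member, at 148 ± 5.77 FPKM and Dnaja2 at 90.6 ± 1.11 FPKM. The heat-inducible Dnajb1 measured 25.9, 27.5, 32.7 and 31.6 FPKM (29.4 ± 3.83), and Dnaja1 exceeded it 7.79-fold. Dnajc5, the cysteine string protein of synaptic vesicles, was at 10.9 FPKM. Dnajc6, the neuronal auxilin that recruits Hspa8 to clathrin coats, was at 0.80 FPKM, and its widely expressed relative Gak, no member, was at 18.9 FPKM.

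Members known mainly from testis or muscle were at low levels, with 9 of 11 below 1 FPKM. The exceptions were Dnajb3 at 3.33 FPKM and Hspb2 at 2.16 FPKM. No member of this list reached 10 FPKM.

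Several small heat shock protein genes varied between libraries. Hspb1, the inducible Hsp27, measured 28.5 and 33.4 FPKM in A1 and A2, 15.5 FPKM in B1 and 95.3 FPKM in B2. The technical libraries of replicate B thus differed 6.14-fold and bracketed both libraries of A, so the mean of 43.2 ± 17.3 FPKM hides a difference within a replicate. Among the 66 members with at least 1 FPKM, only Hspb1 and Hspa13, a minor reticulum Hsp70 at 4.40 FPKM in B1 and 10.8 FPKM in B2, differed by 1 or more on the log2(FPKM + 1) scale between B1 and B2. That is 3.03% of them, against 2.8% of all genes. Both were higher in B2, a direction called for 2.02% of all genes, and 0 members were higher in B1, a direction called for 0.773%.

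Hspb8, a partner of the co-chaperone Bag3 in selective autophagy, measured 3.72, 3.60, 5.65 and 10.6 FPKM. It was higher in B without overlap, by 0.92 on the log2 scale, and B2 was again above B1. Hspb2, a muscle form, measured 1.35, 1.60, 2.67 and 3.02 FPKM. Its neighbour Cryab, alpha-B crystallin and no member by name, starts 725 bases away in the opposite direction on rn6 chromosome 8 and measured 26.8, 30.8, 59.4 and 92.6 FPKM. Cryab was higher in B by 1.34 on the log2 scale with no overlap, a rule that 4.58% of all genes met in that direction, and 1 of the 43 listed partners, factors and other chaperones with at least 1 FPKM met it. Hspb6 (22.6, 24.1, 18.1 and 27.5 FPKM) and Hspb11, an intraflagellar transport protein (35.3 ± 3.82 FPKM), did not separate A from B. Hspb9, Hspb7 and Hspb3 were at 0.84, 0.30 and 0.12 FPKM.

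Between the biological replicates most members differed little. Across the 66 members with at least 1 FPKM, Spearman correlations between libraries were 0.972 to 0.997, over genes that are not independent replicates. A difference was counted where the mean log2(FPKM + 1) differed by at least 1 and the libraries did not overlap. Only Hspa12b met it among 66 members, 1.52%, and it was higher in B, where the rule called 4.58% of all genes (6.15% in either direction). No member was higher in A by this rule, where it called 1.57% of all genes. Without a limit on size, the libraries did not overlap for 22 members higher in B (33.3%, against 28.1% of all genes) and 17 higher in A (25.8%, against 32% of all genes), together 59.1% of members and 60.1% of all genes. The median difference was -0.03 for members and -0.03 for all genes, and with libraries scaled by their median ratio it was 0.0016 for members and -0.013 for all genes. An absolute difference of no more than 0.5 was found in 59 of 66 members (89.4%) and in 78.3% of all genes, and with at least 10 FPKM in 51 of 52 members (98.1%) and in 82.7% of all genes. The exception was Dnajc21, a ribosome assembly J protein, at 26.6, 27.1, 15.8 and 17.02 FPKM, which was lower in B by 0.68 on the log2 scale.

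Hspa12b (rn6 chromosome 3, 123670259 to 123688640), an atypical Hsp70 known from endothelial cells, measured 2.74 and 2.44 FPKM in A1 and A2 and 9.93 and 9.77 FPKM in B1 and B2. Replicate B was 3.80-fold higher, a log2 difference of 1.60, and both technical pairs were close. Markers of several cell types also differed between A and B. The 7 mesenchymal and meningeal markers, Pdgfra (6.39-fold, an oligodendrocyte progenitor marker) and Acta2 (3.44-fold, a smooth muscle marker) were higher in B. Pdgfra was the only 1 of 5 oligodendrocyte markers, and Acta2 the only 1 of 5 mural and smooth muscle markers, to meet the limit for a difference. The libraries of Tagln, Myh11 and Des overlapped. Of the progenitor markers Fabp7, Hes5 and Sox2 were lower in B without overlap, Sox2 by 0.59 on the log2 scale. Of the neuron markers 3 of 5 (Dcx, Snap25 and Syt1) were lower in B without overlap, which 32% of all genes were. Astrocyte markers were mixed, with S100b lower in B and Aqp4 higher without overlap, while the libraries of Gfap and Aldh1l1 overlapped. The 4 endothelial markers were each below 1 FPKM on average, with a sum of 0.517, 0.507, 0.730 and 2.13 FPKM. The part of these markers in the result for Hspa12b was not tested. Of the mesenchymal and meningeal markers, 6 of 7 were higher in B2 than in B1, as Hspb1, Hspb8 and Cryab were. So were 13 of 14 Hsp70 and Hsp110 genes and 7 of 8 small heat shock protein genes, but only 19 of 43 J protein genes and 1 of 9 CCT genes. The share of all genes higher in B2 without a limit on size was not counted. Of the mural and smooth muscle markers 4 of 5 were higher in B2 than in B1, with sums of 710, 813, 640 and 1456 FPKM, of which Tagln gave most, and Des, Rgs5 and Myh11 had means of 0.15, 0.23 and 1.09 FPKM. Of the progenitor markers 3 of 6 (Nes, Pax6 and Vim) and of the astrocyte markers 1 of 4 (Gfap) exceeded in B2 their level in B1, and the others fell below it. The same held for 2 of 5 neuron markers and 0 of 5 oligodendrocyte markers, among which Olig1 fell from 523 to 237 FPKM. Of the lists below 1 FPKM, 4 of 4 endothelial and 1 of 4 microglia markers were higher in B2. The part of these markers in the values of Hspb1, Hspb8, Hspb2 and Cryab was not tested.

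**Figure D4:**
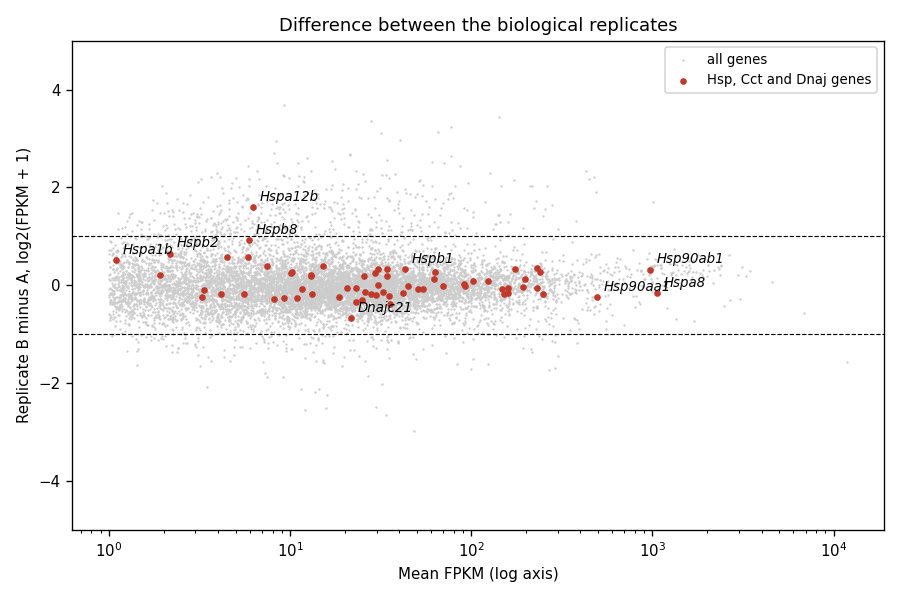
Difference between replicates B and A in mean log2(FPKM + 1) against the mean FPKM (log axis) for genes averaging 1 FPKM or more, with all genes in grey and the 66 members in red. Dashed lines mark a difference of 1 in each direction. Only Hspa12b lies beyond them among the members, at 1.60.

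**Figure D5:**
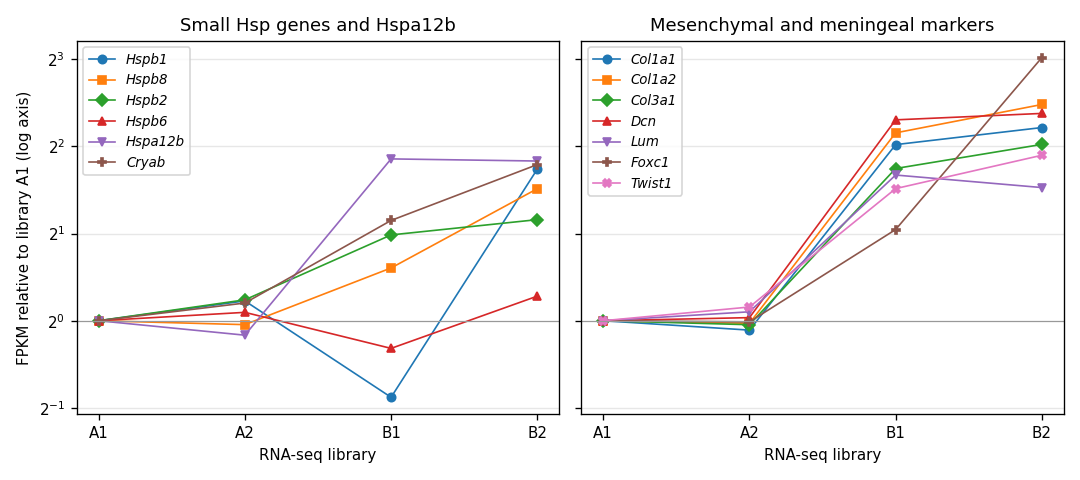
FPKM relative to library A1 (log axis) in A1, A2, B1 and B2 for small heat shock protein genes with Hspa12b and Cryab (left) and for the mesenchymal and meningeal markers (right). Lines join the values of a gene and carry no order of libraries. Hspa12b is equally high in B1 and B2, whereas Hspb1 falls in B1 and rises to 95.3 FPKM in B2.

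Factors that work with the members were present as well. Hsf1, the main heat shock factor, measured 42.7, 30.3, 37.6 and 28.5 FPKM, and Hsf2 50.02, 50.06, 41.9 and 34.8 FPKM, which was lower in B without overlap. Hsf4 was at 0.74 FPKM. All 19 listed Hsp90 and Hsp70 co-chaperones had at least 1 FPKM, 17 at least 10 and 8 at least 100. Of these 19 genes 0 met the limit for a difference between A and B, which 6.15% of all genes met. The highest were Stub1, a ubiquitin ligase that receives clients from Hsp70, at 178 ± 6.38 FPKM, Bag6 at 156 ± 1.03 FPKM and Cdc37, the kinase adaptor of Hsp90, at 145 ± 23.0 FPKM. Stip1, which bridges Hsp70 and Hsp90, was steady at 122 ± 0.391 FPKM. All 4 nucleotide exchange genes, Grpel1, Sil1, Hyou1 and Grpel2, were between 10.8 and 72.9 FPKM.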

How the data were processed

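PolyA RNA-seq tables of 4 libraries were used, as 2 technical libraries of each of the biological replicates A and B. Alignment by the authors was to rn6, with STAR, and the deposited tables have the layout of StringTie, which the submitters' processing notes list beside cutadapt and HISAT. Versions were not given in the sources used here. The deposited FPKM values were computed by the authors, who name Rsubread and DESeq2 in their methods. The deposited TPM values, also from the authors, total 1e+06 per library. Coverage, as deposited, is mean read depth and was used for depth and as an alternative measure of level, where B2 had 28.1% of the depth of B1. Median coverage over the 66 members with at least 1 FPKM was 704, 664, 738 and 196 in A1, A2, B1 and B2, and the lowest was 12.8 in B2.

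Rows that share a gene name were added up in FPKM, then averaged over technical libraries and then over replicates (pandas 2.3.3, Python 3.11.15). Differences between A and B are differences of mean log2(FPKM + 1), a scale that understates changes of low genes. They were called at 1 or more with libraries not overlapping and a mean of at least 1 FPKM, over all 10481 genes of that level. No test was run. The steps were checked on simulated data. Named genes were the members of the lists, those of at least 100 FPKM, those differing between A and B and the extremes of each family. Hspa13, Hspa14, Dnajc21 and others outside these were named for their roles or after their values were seen. The members and lists were chosen with earlier results of these data known, and the triple motif and the coverage alternative after seeing the data. Promoters came from RefSeq (GRCr8), and protein sequences were not used here. Alternatives covered the unit, averaging, thresholds, pseudocount, scaling, gene lists and samples left out.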

Additional observations from a re-analysis of the deposited data

Results flagged for a closer look

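Of the 80 members above 0 in any library, 8 had a library far from the other 3, by the ratio of its gap to the whole range. About 1 in 20 would be picked out by chance with independent samples, and these libraries are technical pairs. Hspa5 was highest in B2 at 309 FPKM, with a ratio of 0.902. Hspa9 was lowest in B1 at 35.1 FPKM (0.843). Dnajc17 was lowest in B2 at 24.0 FPKM (0.862), and Dnajc4 was lowest in B2 at 17.7 FPKM (0.954). Members at low levels were highest in B2 in 3 cases, Dnajc28 at 2.58 FPKM (0.838), Dnajc22 at 2.41 FPKM (0.859) and Hspa1l at 0.688 FPKM (0.866). Dnajc5g was at 0.0307 FPKM in A2 and listed at 0 elsewhere. Of the 8, 6 were in B2, the shallowest library.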

How the results depend on the processing

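Apart from leaving out a replicate, 55 alternatives were tried for 17 results. Of these, 41 left the value within 1 SD of the replicates, or a count within 1.5 times, and 14 shifted it more. In all, 0 were labelled as reversed, but 2 kinds of turn lay outside that label. The median difference between B and A went from -0.027 to 0.0016 with scaled libraries. With levels from coverage, the Hsp90 share went from above that of the Hsp70 and Hsp110 families (0.284% against 0.249%) to below it (0.250% against 0.256%). The ratio of Hsp90ab1 to Hsp90aa1 became 3.91 with levels from coverage, because the coverage of Hsp90aa1 is low for its FPKM, and the shares of all transcripts became 0.250% for Hsp90, 0.061% for the heat-inducible list, 0.409% for the constitutive list and 0.180% for CCT. The ratio of the constitutive to the heat-inducible median became 4.99 without library B2 and 3.43 without Hspa1a and Hspa1b. The number of members that differed between A and B became 2 with a pseudocount of 0.1 (Hspa12b and Hspb8), 0 with a mean of at least 10 FPKM, which removes Hspa12b, and 4 with a difference of at least 0.58 (Dnajc21, Hspa12b, Hspb2 and Hspb8). The median difference between B and A became -0.072 with TPM, -0.012 without B2, -0.043 at 10 FPKM and 0.0016 with libraries scaled by their median ratio, and the cause was not tested. Leaving out a biological replicate, which with n = 2 cannot show stability, gave 477 to 1104 for Hspa8 over the sum of Hspa1a and Hspa1b, 1.63 to 2.33 for Hsp90ab1 over Hsp90aa1, 1.76 to 1.88 for Hspa4 over Hsph1, 4.13 to 4.57 for the ratio of medians, 2.10 to 2.26 for CCT and 66 to 68 members with at least 1 FPKM. No paired analysis was possible because there was only 1 condition. Depth limits members near or below 1 FPKM such as Hspa1a and Hspa1b, and with n = 2 a spread is itself uncertain.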
